A study of Homo sapiens with 6 samples.

Results

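RYR2 encodes the ryanodine receptor of heart muscle, the calcium release channel in the membrane of the endoplasmic reticulum (ER). The genes described here are the channels that let calcium out of the ER, the pumps that bring it back and the 2 proteins that refill the store, measured in SUM159 breast cancer cells with silenced spinophilin. A list of 10 genes was used: the ryanodine receptors RYR1, RYR2 and RYR3, the IP3 receptors ITPR1, ITPR2 and ITPR3, the SERCA pumps ATP2A2 and ATP2A3, the ER calcium sensor STIM1 and the plasma membrane channel ORAI1. Of the 10 genes, 5 had a transcript cluster under their name (RYR2, RYR1, RYR3, STIM1 and ORAI1, 1 each), among 14884 named genes and 53617 transcript clusters in all. The 5 others (ITPR1, ITPR2, ITPR3, ATP2A2 and ATP2A3) were not analysed here, since 37519 transcript clusters carry no name in the table used. RYR2 itself was chosen by its higher level in the spinophilin-silenced cells, so its values are given as a description without a test.

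SUM159 is an established breast cancer cell line that the study used as its basal-like model. The spinophilin-silenced cells carried a lentiviral short hairpin RNA (shRNA) against spinophilin, a scaffold protein that binds protein phosphatase 1 and actin, and a scrambled shRNA was used for the control cells. Both kinds of cells had been stably transduced and selected with puromycin, 1 hairpin was used against spinophilin, and the methods do not speak of single clones. Each of 3 spinophilin-silenced and 3 control samples had its total RNA measured on an own array (Affymetrix Human Gene 2.0 ST), and the arrays are named 1, 2 and 2d in each group as in their labels. What 2d stands for is not stated, so it is not known whether arrays 2 and 2d of a group are independent. If they are not, n = 3 overstates the number of independent samples. They were therefore also averaged or taken as a block in alternatives. Values are log2 expression after robust multi-chip average normalization (RMA), so a difference of 1 is a doubling in normalized signal, and the level of 1 gene cannot be set against that of another, because their probes differ. The silencing of spinophilin itself was not analysed here.

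The ER holds most of the releasable calcium of a cell. SERCA pumps fill it, and ryanodine receptors and IP3 receptors release it into the cytosol, where it acts as a signal. Ryanodine receptors open in response to calcium itself and are known above all from muscle and nerve, where RYR1 serves skeletal muscle, RYR2 the heart and RYR3 is found in several tissues at lower levels. When the store runs low, STIM1 in the ER membrane clusters and opens ORAI1 in the plasma membrane, which is called store-operated calcium entry.

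All 11 measured markers of basal-like and mesenchymal breast cancer lines (of 15 listed) lay above the upper quartile of every array, with VIM between 12.5 and 12.6. Of 18 measured luminal markers (of 20 listed) 2 did so, and the estrogen receptor gene ESR1 lay between 4.11 and 4.50. Since probes differ between genes, these places do not rank the markers against each other. Arrays of 1 group differed from each other with a standard deviation of 0.267 to 0.306 over all transcript clusters, and a silenced and a control array with one of 0.290 to 0.328. The median difference between the groups over all transcript clusters was -0.003 on the log2 scale, and 95% of them lay between -0.36 and 0.40. The housekeeping genes of the study, GAPDH and B2M, differed by -0.02 (SE 0.098) and 0.03 (SE 0.081).

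RYR2 had log2 expression values of 7.16, 7.24 and 7.05 on the spinophilin-silenced arrays 1, 2 and 2d, against 5.60, 5.59 and 5.62 on the control arrays. The groups lay far apart, and the lowest silenced array was 1.43 above the highest control array, a 2.70-fold difference. The means were 7.15 ± 0.095 in silenced cells and 5.60 ± 0.016 in control cells (SD, n = 3 each). RYR2 was therefore 1.55 higher on the log2 scale in silenced cells (SE 0.083, 95% interval 1.35 to 1.74), which is 2.92-fold (2.56 to 3.35). Because RYR2 was chosen by this difference, the SE and the interval are a description and no test. The difference exceeded in size that of 99.9% of all transcript clusters. In RNA of whole cultures, a higher level in every cell and a larger share of cells with RYR2 transcripts cannot be told apart.

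The place of RYR2 among the transcript clusters of the same array can be compared between arrays, though it does not rank RYR2 against other genes, since their probes differ. RYR2 lay above 80.8% to 82.6% of them on the silenced arrays and above 58.3% to 58.9% on the control arrays. Hence RYR2 was over the upper quartile on 3 of 3 silenced arrays and on 0 of 3 control arrays, while all 6 arrays had it above the median. The 3 control values were unusually close to each other: they spanned 0.0319, and 1.79% of all transcript clusters had a smaller SD among the control arrays. The silenced arrays spanned 0.191, and 34.1% of all transcript clusters had a smaller SD there. The median SD over all transcript clusters was 0.130 in silenced and 0.121 in control arrays.

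**Figure D1:**
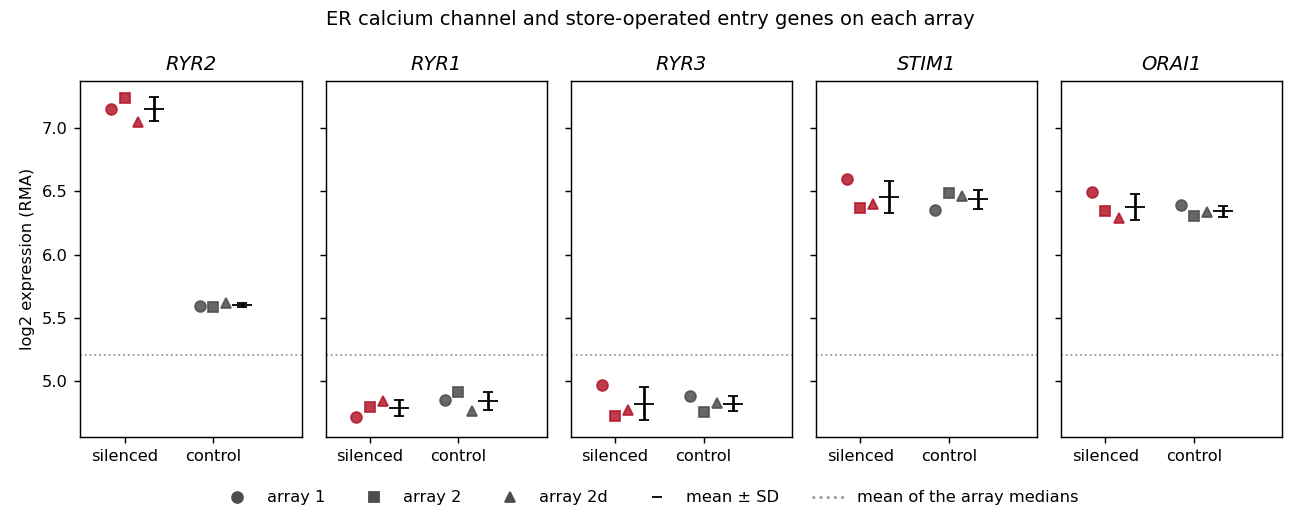
Log2 expression (RMA) of the 5 measured genes on each array, silenced cells at the left and control cells at the right of each panel. Points are single arrays, bars give mean ± SD (n = 3), and the dotted line is the mean of the array medians. Levels of different genes are not comparable. RYR2 lies between 7.05 and 7.24 in silenced and between 5.59 and 5.62 in control cells, and the 4 other genes overlap between the groups. Most transcript clusters overlap: the groups lie apart for 6.43% (higher in silenced cells) and 6.27% (lower) of all.

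The 3 ryanodine receptor genes lie on different chromosomes, and the sequence before their start sites is shown so that the gene that differed can be read beside its 2 paralogs. The 250 bases upstream of the RefSeq start site (GRCh38.p14, plus strand for each) are printed with GC boxes in capitals (GGGCGG, or CCGCCC on the other strand), a motif bound by SP family factors.
RYR2, chr1:237041934-237042183: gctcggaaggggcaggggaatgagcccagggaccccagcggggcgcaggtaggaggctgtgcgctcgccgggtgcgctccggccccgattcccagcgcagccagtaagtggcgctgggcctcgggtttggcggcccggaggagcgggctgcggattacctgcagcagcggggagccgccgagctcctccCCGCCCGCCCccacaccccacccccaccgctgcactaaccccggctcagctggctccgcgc
RYR1, chr19:38433441-38433690: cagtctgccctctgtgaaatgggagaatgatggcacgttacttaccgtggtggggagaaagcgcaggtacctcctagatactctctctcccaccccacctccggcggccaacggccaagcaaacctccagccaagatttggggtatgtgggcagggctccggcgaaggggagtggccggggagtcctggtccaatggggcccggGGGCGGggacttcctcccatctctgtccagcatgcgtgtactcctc
RYR3, chr15:33310717-33310966: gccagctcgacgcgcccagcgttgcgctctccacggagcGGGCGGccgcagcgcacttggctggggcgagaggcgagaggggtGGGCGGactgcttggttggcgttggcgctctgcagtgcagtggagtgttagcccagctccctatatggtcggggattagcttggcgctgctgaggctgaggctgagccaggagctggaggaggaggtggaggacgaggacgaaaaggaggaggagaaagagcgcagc
The RYR2 window was the richest in G and C of the 3, with 75.2%, against 62.4% for RYR1 and 66.8% for RYR3. It held 25 CpG dinucleotides, while RYR1 had 12 and RYR3 had 20. Among 35116 RefSeq promoter windows of the same length the median was 11 CpG, and 78.4% of the windows had fewer than RYR2, 51.5% fewer than RYR1 and 67.6% fewer than RYR3.

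Searched on both strands, the GC box occurred in 2 overlapping copies in the RYR2 window, in 1 copy for RYR1 and in 2 copies for RYR3, and 42.6% of all windows held at least 1. An E-box (CANNTG), the motif of basic helix-loop-helix factors, was found once each for RYR2 and RYR3 and 0 times for RYR1, against 61.8% of all windows with a match. Neither the core motif of the calcium-regulated NFAT factors (GGAAA, in 55.6% of all windows) nor a TATA box (TATAAA, in 10.7%) occurred in any of the 3 windows. These are matches of letters and no measured binding sites.

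RYR1, the release channel of skeletal muscle, had values of 4.72, 4.80 and 4.84 in silenced cells, against 4.85, 4.91 and 4.77 in control cells. The groups overlapped, with means of 4.79 ± 0.061 and 4.84 ± 0.072 (SD, n = 3 each). The difference was -0.06 (SE 0.082, 95% interval -0.25 to 0.14, adjusted p = 0.937 by limma over all transcript clusters), an interval of 0.840-fold to 1.10-fold. RYR3 had values of 4.97, 4.72 and 4.77 in silenced cells and 4.88, 4.76 and 4.83 in control cells. The groups again overlapped, and the control values lay within the range of the silenced ones. The means were 4.82 ± 0.13 and 4.82 ± 0.063 (SD, n = 3 each), the difference was below 0.01 in size (SE 0.095, 95% interval -0.23 to 0.22), and the interval corresponded to 0.855-fold to 1.17-fold (limma, adjusted p = 1.00). RYR1 and RYR3 lay between the lower quartile and the median on all 6 arrays.

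STIM1, the calcium sensor of the ER, had values of 6.598, 6.37 and 6.40 in silenced cells, against 6.35, 6.49 and 6.47 in control cells. Silenced array 1 was the highest and control array 1 the lowest of the 6, and the other arrays lay between them. The means were 6.45 ± 0.12 and 6.44 ± 0.072 (SD, n = 3 each), with a difference of 0.02 (SE 0.095, 95% interval -0.20 to 0.24, limma adjusted p = 0.985). ORAI1, the pore of store-operated entry, had values of 6.49, 6.35 and 6.29 in silenced cells, against 6.39, 6.30 and 6.34 in control cells. The highest and the lowest value were both in silenced cells, so that the control arrays lay within the silenced range. The means were 6.38 ± 0.10 and 6.34 ± 0.044 (SD, n = 3 each), with a difference of 0.03 (SE 0.087, 95% interval -0.17 to 0.24, limma adjusted p = 0.971). The intervals reached from 0.868-fold to 1.18-fold for STIM1 and from 0.888-fold to 1.18-fold for ORAI1, and both genes lay above the median on all 6 arrays.

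Of the 4 genes besides RYR2, 0 passed an adjusted p under 0.05 (limma), and 0 had an unadjusted p under 0.05 by limma or by an unmoderated test. Such an unadjusted p was found for 7.39% of all transcript clusters by limma. The unmoderated tests without and with the array label gave 7.02% and 6.69%, so that 0 of 4 is near the share of all transcript clusters. Over all 53617 transcript clusters 110 passed the adjusted threshold, a share of 0.205%, and 712 had an unadjusted limma p under 0.05 with at least 1.5-fold, a share of 1.33%. The unadjusted p with at least 1.5-fold has the thresholds of the study's methods, which take the p from another test and name no adjustment. The 95% intervals of RYR1, RYR3, STIM1 and ORAI1 all stayed within 1.5-fold in both directions, at the level of normalized array signal.

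A wider set of calcium genes was examined next. In 11 lists, 188 genes were named, and 93 of them, in 9 lists, had a transcript cluster. Of the 93 genes 0 passed an adjusted p under 0.05 by limma, against 0.205% of all transcript clusters, and 0 met the 1.5-fold criteria, against 1.33%. The unmoderated tests passed 0 of all transcript clusters at the adjusted threshold and so say nothing about the 93. At an unadjusted p under 0.05 limma gave 2 of the 93 genes (2.15%, against 7.39% of all transcript clusters). The unmoderated test gave 5 (5.38%, against 7.02%), and the unmoderated two-way test with the array label as second factor gave 9 (9.68%, against 6.69%), so that the share lay below or above that of all transcript clusters depending on the test. By limma 1 gene was higher and 1 lower in silenced cells, which is 1.08% each, against 3.86% higher and 3.53% lower over all transcript clusters. The groups did not overlap for 4 genes that were higher and 4 that were lower in silenced cells, 4.3% each, against 6.43% and 6.27% over all transcript clusters. The median difference was -0.01 and the single differences lay between -0.27 and 0.29. Named genes, by their brightest transcript cluster, spread less than all transcript clusters, with a central 95% of -0.30 to 0.30, against -0.36 to 0.40. The shares over all transcript clusters are therefore not a like-for-like background for the 93 named genes. For 90 of the 93 genes the 95% interval stayed within 1.5-fold in both directions.

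**Figure D2:**
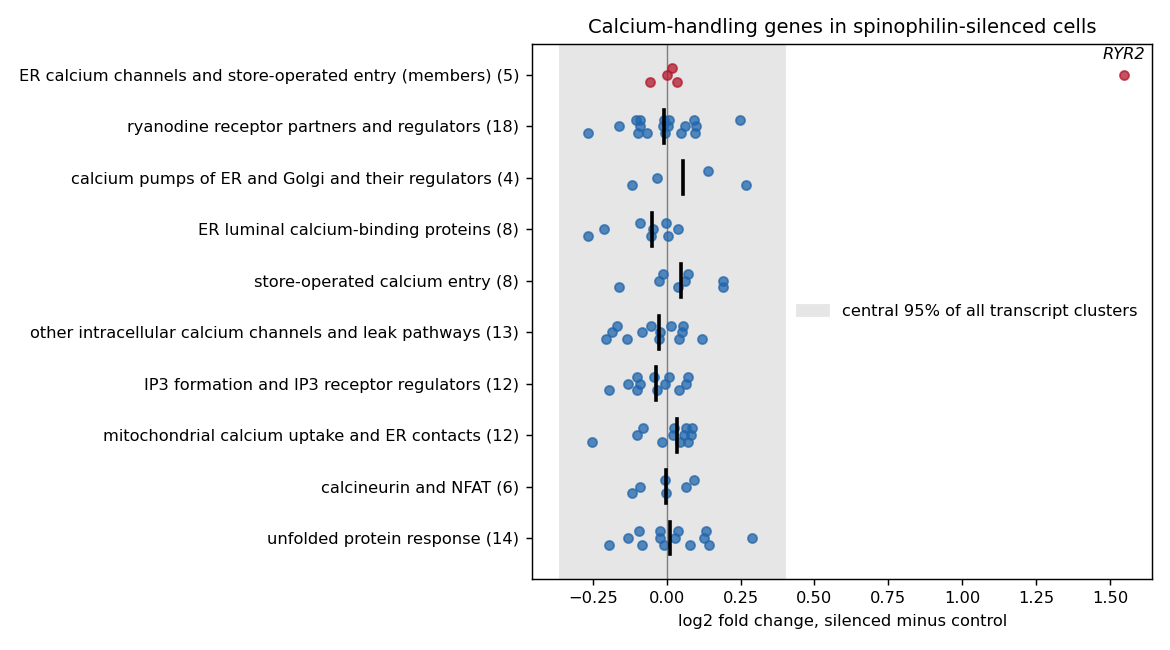
Log2 fold change (silenced minus control) of each measured calcium gene, by list, with the number of measured genes in brackets. Each point is a gene, black bars are medians of lists, and the grey band holds the central 95% of all transcript clusters (-0.36 to 0.40). RYR2 at 1.55 lies outside the band, and the 93 related genes and the 4 other measured channel and entry genes lie inside it.

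Partners and regulators of ryanodine receptors were represented by 18 of 33 listed genes, with a median difference of -0.01. JPH1 encodes a junctophilin, which holds the ER close to the plasma membrane. It had values of 7.11, 7.10 and 7.02 in silenced cells, against 6.89, 6.80 and 6.80 in control cells, so that all silenced arrays were higher, by 0.25 on average (SE 0.077), but this missed the adjusted threshold (limma, adjusted p = 0.511). CASQ2, the calcium-binding protein calsequestrin of the heart, had dim values of 3.68, 3.74 and 3.60 in silenced cells, against 4.0005, 3.84 and 3.99 in control cells. Here all silenced arrays were lower, by a difference of -0.27 (SE 0.087, limma adjusted p = 0.533), and the values were below the lower quartile on 4 of 6 arrays.

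Triadin (TRDN), which anchors calsequestrin to the channel, was below the lower quartile on all 6 arrays, with a difference of -0.01 (SE 0.114). JPH2, the junctophilin of the heart, differed by -0.01 (SE 0.097). Sorcin (SRI), a calcium-dependent inhibitor of RYR2, had values of 9.61, 9.60 and 9.65 in silenced cells, against 9.70, 9.71 and 9.72 in control cells, without overlap but with a difference of only -0.09 (SE 0.073, limma adjusted p = 0.870). The kinase CAMK2D, which phosphorylates RYR2 in the heart, differed by -0.16 (SE 0.124).

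Of the calcium pumps and their regulators, 4 of 9 listed genes were measured. Phospholamban (PLN) inhibits SERCA in the heart. It had values of 6.89, 7.05 and 7.09 in silenced cells, against 6.46, 6.86 and 6.91 in control cells. The groups overlapped, and the difference of 0.27 (SE 0.14) missed the threshold (limma, adjusted p = 0.757). Sarcolipin (SLN), a SERCA inhibitor of muscle, differed by -0.12 (SE 0.088).

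The calcium-binding proteins of the ER lumen were measured for 8 of 16 listed genes and had a median difference of -0.05. The chaperone calreticulin (CALR) had values of 11.71, 11.70 and 11.59 in silenced cells and 11.73, 11.74 and 11.67 in control cells, with overlapping groups and a difference of -0.05 (SE 0.078). Its membrane-bound relative calnexin (CANX) differed by less than 0.01 (SE 0.077). SDF4, a calcium-binding protein of the Golgi lumen, differed by -0.21 (SE 0.103, limma adjusted p = 0.741).

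Besides STIM1 and ORAI1, store-operated entry was covered by 8 of 15 listed genes, with a median difference of 0.05. The paralogs STIM2 (0.07, SE 0.090), ORAI2 (-0.03, SE 0.089) and ORAI3 (0.04, SE 0.155) overlapped between the groups. CRACR2B, a regulator of ORAI channels, had values of 5.27, 5.39 and 5.38 in silenced cells, against 5.20, 5.08 and 5.19 in control cells, and the difference of 0.19 (SE 0.083) missed the threshold (limma, adjusted p = 0.692). Other intracellular calcium channels and leak pathways (13 of 15 measured) had a median difference of -0.03. Of these, the lysosomal channel gene MCOLN2 had values of 7.33, 7.61 and 7.69 in silenced cells, which lay just below 7.80, 7.75 and 7.69 in control cells (difference -0.21, SE 0.110, limma adjusted p = 0.778).

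For the IP3 branch, 12 of 24 listed genes of IP3 formation and IP3 receptor regulation were measured, with a median difference of -0.04. The largest in size was ERLIN2, which takes part in the degradation of active IP3 receptors, with -0.20 (SE 0.098, limma adjusted p = 0.754). Genes of mitochondrial calcium uptake and ER contacts (12 of 17 measured) had a median of 0.03. Their lowest value was that of SMDT1, a subunit of the mitochondrial calcium uniporter, with -0.25 (SE 0.118, limma adjusted p = 0.722), whereas the pore subunit MCU differed by 0.07 (SE 0.076).

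Downstream readouts were also compared. Calcineurin and NFAT genes (6 of 15 measured) had a median difference below 0.01 in size, and the largest was that of AKAP5, an anchor of calcineurin, with -0.12 (SE 0.120, limma adjusted p = 0.899). RCAN1, a calcineurin inhibitor whose transcription NFAT activates, had values of 5.49, 5.40 and 5.44 in silenced cells and 5.40, 5.53 and 5.42 in control cells, with a 95% interval of -0.19 to 0.19. The unfolded protein response, which is set off when the ER is depleted of calcium, was measured by 14 of 21 genes, with a median of 0.01. ATF3, a stress-induced transcription factor, had the highest difference with 0.29 (SE 0.163, limma adjusted p = 0.795), with overlapping groups. CRELD2, a secreted protein induced by ER stress, had values of 5.86, 5.79 and 5.90 in silenced cells, against 5.99, 6.18 and 5.97 in control cells. It was the only gene of this list without overlap, with a difference of -0.20 (SE 0.092) that missed the threshold (limma, adjusted p = 0.722). The ER stress kinase gene EIF2AK3 (0.14, SE 0.093) and SDF2L1, a cochaperone of the ER (-0.13, SE 0.131), overlapped between the groups, as did the transcription factor genes DDIT3 (0.13, SE 0.089), XBP1 (0.03, SE 0.078) and ATF4 (-0.02, SE 0.079). None of the 18 listed voltage-gated calcium channel genes and none of the 8 genes of calcium extrusion at the plasma membrane was analysed here.

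Because RYR2 is known as a gene of heart and nerve, markers of those cell types were read beside it. Of 20 heart muscle markers 10 were measured, and 0 passed the adjusted threshold of limma (0.205% of all transcript clusters did) or had an unadjusted p under 0.05 (7.39% did), so that 0 of 10 is near the share of all transcript clusters. TBX5 had the highest difference among them with 0.32 (SE 0.172), and the summed linear level of the 10 was 379 to 436 in silenced and 405 to 425 in control arrays. The troponin gene TNNI3 was the only 1 of the 10 below the lower quartile on all 6 arrays. The other measured troponin gene of the list, TNNC1, had values of 5.91 to 6.24, above the median of every array. Above the upper quartile on all 6 arrays lay 0 of the 10. Skeletal muscle had 4 of 13 markers measured, with differences between -0.14 and 0.12.

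Of 16 neuronal markers 5 were measured. MAP2, a microtubule-associated protein of dendrites, had values of 8.71, 8.58 and 8.75 in silenced cells, against 8.29, 8.21 and 8.35 in control cells, and was 0.40 higher (SE 0.087, limma adjusted p = 0.264). With it, the summed linear level of the 5 markers was 543.5 to 604 in silenced and 461 to 483 in control arrays. Without MAP2 it was 139 to 173 in silenced and 156 to 165 in control arrays. The part of MAP2 in the difference of RYR2 was not tested.

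The chromosomal surroundings of RYR2 were examined with the 10 nearest measured genes on each side, in RefSeq order on chromosome 1 (102 RefSeq genes lie between the outermost). Their median difference was 0.00, with a range of -0.19 for KMO to 1.70 for NID1. The nearest measured genes, MTR (methionine synthase) at the one side and ZP4 (an egg coat protein) at the other, differed by -0.03 (SE 0.076) and -0.08 (SE 0.166). Among the 20 neighbours the groups did not overlap for 2 genes, NID1 and TBCE, both higher in silenced cells, and for 0 genes that were lower. Over all transcript clusters the shares were 6.43% and 6.27%, so that these counts are near the share of all transcript clusters. By limma 1 of the 20, NID1, passed an adjusted p under 0.05, against 0.205% of all transcript clusters. A count of 1 gene allows no statement about the 20 as a set.

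NID1, which lies 7 measured genes from RYR2, encodes nidogen 1, a glycoprotein of basement membranes. It had values of 7.29, 6.90 and 6.53 in silenced cells, against 5.33, 5.12 and 5.17 in control cells. All silenced arrays were more than 1 above all control arrays, although they varied more among themselves than for RYR2 (SD 0.376, against 0.105 in control cells). The difference of 1.70 (SE 0.18, 95% interval 1.26 to 2.13) passed the threshold (limma, adjusted p = 0.0262). The limma call was kept without silenced array 2d (adjusted p = 0.0309) and lost without silenced array 1 (0.0604) or 2 (0.138) and without control array 1 (0.112), 2 (0.144) or 2d (0.115). The call was also lost with the array label as a replicate block (0.0603), with arrays 2 and 2d averaged (0.161) and in the unmoderated tests without and with that block (0.334 and 0.665). In all, 10 of 19 alternatives kept the call, and the log2 difference stayed between 1.51 and 1.88 over the 19. The 6 measured genes between NID1 and RYR2 differed by -0.12 to 0.03, and all overlapped between the groups.

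**Figure D3:**
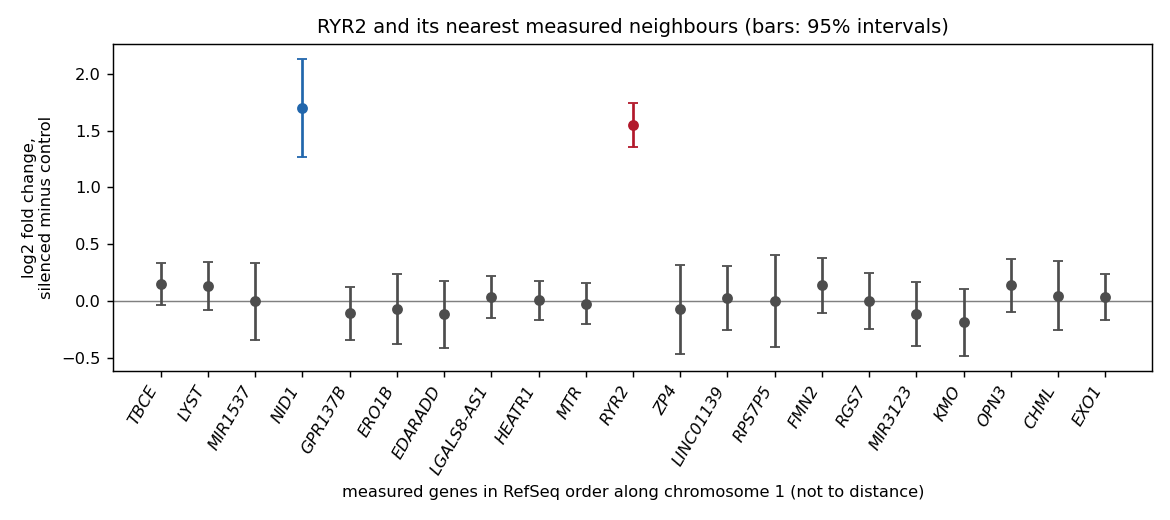
Log2 fold change (silenced minus control) of RYR2 and its 10 nearest measured neighbours on each side, in RefSeq order and not to distance. Points are fitted differences and bars are 95% intervals. RYR2 (1.55) and NID1 (1.70) stand above the other 19 genes, which lie between -0.19 and 0.15.

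Finally, the named genes whose values over the 6 arrays were most like those of RYR2 were determined by Pearson's r. Since the 6 arrays fall into 2 groups and RYR2 was chosen by its difference, r is given as a description. Of 14883 other named genes, 6 had an r over 0.99. The closest was AMN1, named after a yeast gene of mitotic exit (r = 0.994), with values of 8.09, 8.31 and 8.20 in silenced cells, against 6.99, 6.87 and 6.95 in control cells. It was followed by the cancer-testis gene CT83 (r = 0.994), with 8.26, 8.44 and 7.88 in silenced cells, against 6.27, 6.29 and 6.17 in control cells. Both shared with RYR2 the large distance between the groups, and both had their highest value on silenced array 2.

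FSTL1, a secreted follistatin-like glycoprotein (r = 0.993), PATJ, a scaffold of the Crumbs polarity complex (r = 0.992), and the long non-coding RNA FLJ16779 (r = 0.992) came next. Their log2 differences were smaller, with 0.30, 0.74 and 0.21, against 1.26 for AMN1 and 1.95 for CT83. FSTL1 and FLJ16779 missed the threshold (limma, adjusted p = 0.320 and 0.564), while AMN1, CT83 and PATJ passed it. As these genes were picked by their likeness to RYR2, the passes are no support. The most opposite courses were those of TMEM184B (r = -0.997), the semaphorin receptor gene PLXNA2 (r = -0.996) and the lysophosphatidic acid receptor gene LPAR3 (r = -0.995). PLXNA2 had values of 6.14, 6.06 and 6.23 in silenced cells, against 6.82, 6.83 and 6.86 in control cells, so that its lowest value was on the array with the highest RYR2 value. The 4 other measured channel and entry genes were far from this pattern, with an r of -0.48 for RYR1, -0.01 for RYR3, 0.11 for STIM1 and 0.27 for ORAI1.

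**Figure D4:**
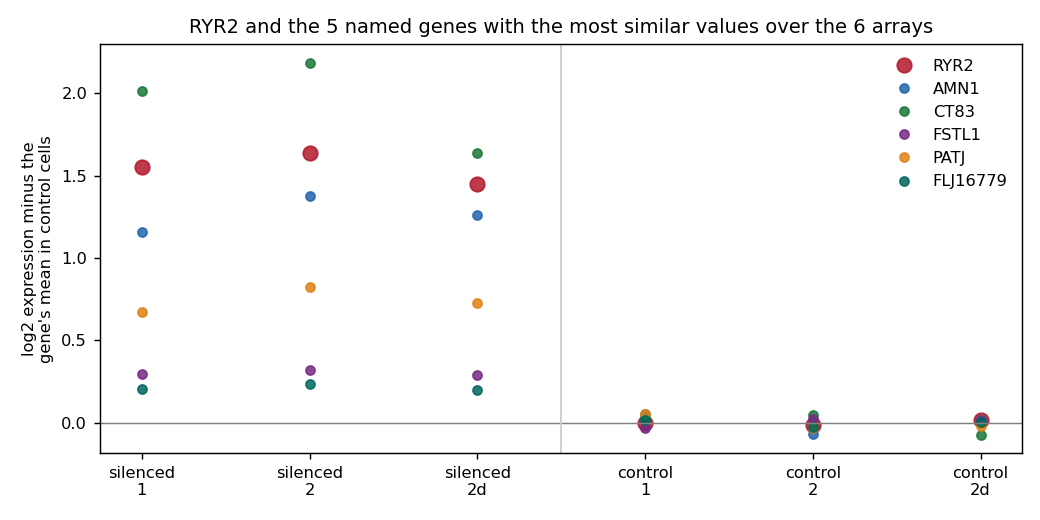
Log2 expression of RYR2 and of the 5 named genes with the highest Pearson's r to it, on each array, as the distance from the gene's own mean in control cells. All 6 genes lie close to 0 on the 3 control arrays and above them on the 3 silenced arrays, with mean differences of 0.21 (FLJ16779) to 1.95 (CT83).

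The log2 difference of RYR2 was 1.502 to 1.60 under 21 other ways of processing the values, leaving out each array included. RYR1 differed by -0.09 to -0.02 and RYR3 by -0.08 to 0.05 under the 20 that gave them a value, since a filter on transcript clusters under the median removed both.

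**Figure D5:**
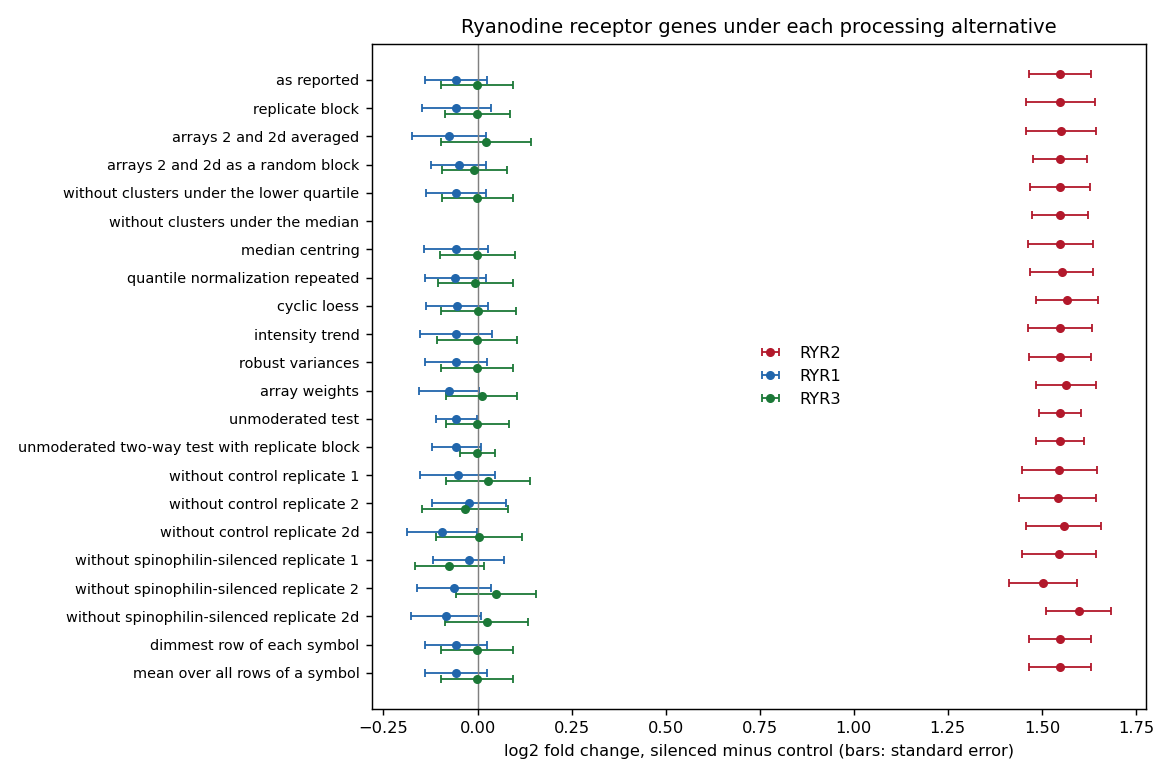
Log2 fold change (silenced minus control) of the 3 ryanodine receptor genes as reported and under each processing alternative, with bars for the standard error. RYR2 stays between 1.502 and 1.60, and RYR1 and RYR3 stay within 0.1 of 0.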

How the data were processed

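Gene expression was measured in 3 spinophilin-silenced and 3 control SUM159 samples with Affymetrix Human Gene 2.0 ST arrays. The authors normalized the arrays by RMA in Partek 6.6, which corrects the background, equalizes the distributions of the arrays by quantiles and summarises probes by median polish. The deposited log2 values were used unfiltered, their base being inferred from their range because the methods do not name it. Normalization makes each difference relative to the other transcripts of an array and compresses differences of dim transcripts, and the number of arrays limits the precision. The build of the array annotation is not stated, so chromosomes and gene order are those of RefSeq (GRCh38.p14).

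Names came from the platform annotation, updated through RefSeq gene identifiers: 1 symbol was found for 16098 transcript clusters and none for 37519. Genes with several transcript clusters (779 genes, 4 of them among the 93 related genes) were represented by the brightest. Groups were compared with limma 3.58.1 in R 4.3.3 (lmFit, eBayes), with no covariate and with Benjamini-Hochberg adjustment over the 53617 transcript clusters. The unmoderated test, with and without the replicate label, stands for the ANOVA of the methods. Other alternatives changed the replicate structure, the filter on dim transcript clusters, the scaling, the variance model and the transcript cluster that stands for a gene, or left out each array in turn. The paper describes the arrays as biological replicates, but the labels name no separate cultures, so p-values measure the spread between these samples. The model fit had been tested on simulated data.

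The members and gene lists were chosen with earlier results of these data known. Named genes were all members, genes with the largest differences in a list (up to 4), direct partners, 10 neighbours per side and the 5 genes most like RYR2. Other genes (SRI, CALR, CANX, MCU, RCAN1, DDIT3, XBP1, ATF4, TNNI3, TNNC1, VIM and ESR1) were chosen after their values were seen. So were the genes most opposite to RYR2. Spinophilin and some other genes of the study are not reported here.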

Additional observations from a re-analysis of the deposited data

How the results depend on the processing

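With 3 arrays a group, small differences of dim genes such as RYR1, RYR3 and CASQ2 are not well measured, and 5 of the 10 listed genes have no value. The log2 difference of RYR2 was 1.502 to 1.60 over the 21 alternatives, 6 of which leave out an array. This is a description and no support. RYR2 was chosen by its rise and its groups lie 1.43 apart, so its direction could hardly turn. Several alternatives change only the variance or the filter and leave the difference as it is. Alternatives that change the transcript cluster standing for a gene could not move a member either, since each measured member has only 1. In all 21 alternatives, 0 of the other measured members and 0 of the related calcium genes passed an adjusted p under 0.05. The filter on the lower quartile left 90 related genes, and the filter on the median left 2 members and 83 related genes. Over all transcript clusters the alternatives called 0 to 223 where counted. Counts of 0 among so few genes are therefore near the share of all transcript clusters and say little about these genes. Among the alternatives, the unmoderated tests passed no transcript cluster at all. Adjusted p ranged over 0.854 to 0.995 for RYR1, 0.886 to 1.00 for RYR3, 0.930 to 1.00 for STIM1 and 0.919 to 0.997 for ORAI1 (limma and the unmoderated tests).

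The number of transcript clusters with an adjusted p under 0.05 was 110 as reported. With the array label as a replicate block it was 40, the call of the neighbour NID1 was lost (adjusted p = 0.0603), and no call on a member or related gene changed. Over all transcript clusters, arrays of the same label deviated together only weakly (correlations 0.0118, 0 and 0.0926). Arrays of unlike label had -0.0683 to 0.0622. The main fit did not take the labels as pairs, but these correlations cannot exclude pairing, since an effect on some genes would barely show in them. The number of transcript clusters called was 12 with arrays 2 and 2d averaged and 223 with them as a random block (estimated correlation -0.24). The unmoderated test gave 0 (3764 at an unadjusted p under 0.05) and the unmoderated two-way test with replicate block also 0 (3588, against 3964 by limma). Leaving out 1 array gave 15 to 48: 24, 21 and 48 without silenced array 1, 2 or 2d, and 15, 17 and 34 without control array 1, 2 or 2d. The cause of these shifts was not tested.

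Signs of differences near 0 turned. RYR3 was 0.0224 with arrays 2 and 2d averaged, 0.0019 with cyclic loess and 0.0112 with array weights, and -0.0756 to 0.0495 without single arrays. STIM1 was -0.0002 with the random block and -0.0522 to 0.0621 without single arrays. ORAI1 was -0.0244 to 0.0771 without single arrays. The cause was not tested.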
